A study of Mus musculus with 8 samples.

Results

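Cdx1, Cdx2, Cdx4 and Pitx1, homeobox genes of the posterior embryo, were read as 4 rows of the 27998 gene rows in 2 single-cell RNA tables from day 5 of mouse embryonic stem cell differentiation, 1 from Tet triple knockout (TKO) cells and 1 from wild-type (WT) cells. They were chosen by name, for how they stood in mesoderm against endoderm and for their presence in the same cells as Hox genes, and with earlier results of these data known. Those values are therefore given as descriptions, with no test. The main patterns were these. Cdx2 was present in both libraries, and in TKO cells 241 of its 352 molecules lay in endoderm-gated cells, against 70 of 774 in WT cells. Endoderm-gated cells were 26.3% of TKO cells and 4.67% of WT cells. In both libraries they held a larger share of the Cdx2 molecules than of the cells. Pitx1 was 59.3-fold higher in WT cells than in TKO cells. In WT cells 55.5% of its molecules lay in mesoderm-gated cells and 38.0% in cells of no class. Its level was highest in the WT cluster of cells where Cdx2 was also highest, which held 43.0% of the WT Pitx1 molecules. Cdx1 and Cdx4 were at or near 0 in both libraries.

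The caudal-type homeobox genes encode transcription factors that are switched on in the primitive streak and tail bud by Wnt, Fgf and retinoic acid signals, and they promote expression of the trunk and posterior Hox genes. Cdx2 is also required in trophectoderm, in the gut endoderm, where it sets intestinal identity, and for growth of the allantois. Pitx1 is a paired-type homeobox gene of the posterior lateral plate mesoderm and the hindlimb bud, where it specifies hindlimb over forelimb, and it is also expressed in the oral ectoderm and pituitary. The Hox genes are numbered by paralog group along their clusters, and higher numbers are expressed further towards the tail.

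Both libraries came from the E14-NKX2-5-EmGFP embryonic stem cell line, in which a green fluorescent protein reports the cardiac gene Nkx2-5, and which was grown on mitomycin C treated embryonic fibroblasts. TKO cells carry the genotype Tet-triple knockout, and WT cells are labelled wild type; neither had a further treatment. Both were grown into embryoid bodies, cell aggregates begun in hanging drops, after leukemia inhibitory factor was withdrawn, and the comparison asks how loss of the TET enzymes, which oxidise 5-methylcytosine, alters the cells formed by day 5. The other 6 samples of the series, pull-downs of 5-hydroxymethylcytosine, were not analysed here. Each group had 1 library, so there was no replicate check, no p-value could be given, and genotype cannot be told apart from clone, culture or preparation. Whether the TKO cells are 1 clone is not given in the labels.

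The kept cells numbered 3196 in the TKO library and 4389 in the WT library, with 33483998 and 37503810 unique molecular identifiers (UMIs, counted transcripts), and medians of 9678 UMIs per TKO cell and 7847 per WT cell. Tet1, Tet2 and Tet3 had 762, 154 and 680 UMIs in TKO cells, against 462, 256 and 1092 in WT cells. The labels do not name the deleted parts of these genes, so transcript tags do not check the genotype. The headers of the tables share 21 barcodes. Cells that could carry such a barcode held 7 Cdx2, 0 Pitx1 and 2 trunk or posterior Hox UMIs in TKO, against 2, 15 and 39 in WT, and no ratio or share of the members moved beyond its counting interval without the marked cells. Ranges in brackets are 95% intervals that cover counting error only, exact Poisson for levels, exact binomial for ratios and Clopper-Pearson for shares of cells.

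Cdx2 lies at chr5:147300900-147307249 (GRCm38.p6). It had 352 UMIs in 155 TKO cells, against 774 UMIs in 471 WT cells. Scaled to counts per 1000000 UMIs of the library (CPM), this was 10.5 CPM in TKO cells and 20.6 CPM in WT cells, a ratio of 0.509 (0.448 to 0.579). A share of 4.85% of TKO cells and 10.7% of WT cells held at least 1 Cdx2 UMI. Most of these cells held the least that can be counted: 86 of the 155 TKO cells (55.5%) and 301 of the 471 WT cells (63.9%) had exactly 1 Cdx2 UMI. The RefSeq window around the start of Cdx2, chr5:147307200-147307499 on the minus strand of GRCm38.p6, is shown because TET enzymes act on methylated CG pairs, which stand in capitals. It holds 18 such pairs, against a median of 7 over all 32851 windows of this length (300 bases) in the table, and its methylation was not measured in the data used here.
Cdx2: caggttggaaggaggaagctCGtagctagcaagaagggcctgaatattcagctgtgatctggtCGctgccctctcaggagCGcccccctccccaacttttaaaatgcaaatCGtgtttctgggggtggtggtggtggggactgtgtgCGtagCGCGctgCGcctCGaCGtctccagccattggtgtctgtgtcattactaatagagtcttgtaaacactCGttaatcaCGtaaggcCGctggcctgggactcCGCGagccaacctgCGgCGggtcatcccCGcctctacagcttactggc

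Pitx1 (chr13:55825044-55836190) differed far more between the libraries than Cdx2. It had 30 UMIs in 23 TKO cells (0.896 CPM), against 1993 UMIs in 943 WT cells (53.1 CPM). The ratio was 0.0169 (0.0113 to 0.0241), or 59.3-fold higher in WT cells (41.4 to 88.1). Of the cells with Pitx1, 19 of 23 TKO cells (82.6%) held exactly 1 UMI, against 493 of 943 WT cells (52.3%). Cdx1, a paralog that acts beside Cdx2 in the streak and the gut, had 1 UMI in TKO cells and 0 in WT cells. Cdx4 (chrX:103321398-103330224), the X-linked paralog of the streak and tail bud, had 0 UMIs in both. A count of 0 for Cdx4 allows up to 0.0896 CPM in TKO cells and 0.0800 CPM in WT cells. So 2 of the 4 genes had the 10 UMIs over both libraries required for a ratio, and 1 of them, Pitx1, was at least 2-fold lower in TKO cells. Over all 15344 genes with that many UMIs, 12.6% were at least 2-fold lower and 13.7% at least 2-fold higher in TKO cells.

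Cells were gated by 16 marker genes for each of 8 cell classes, with no Cdx, Pitx or Hox gene among them. Some genes of other lists counted below, such as T, Fgf8, Hand1 and Hand2, were among the markers. A cell thinned to 4000 UMIs was placed in the class with the most detected markers, given at least 3 markers and a lead of at least 2 over the next class. This placed 445 TKO cells and 1799 WT cells in mesoderm, and 840 TKO cells and 205 WT cells in endoderm. Of the mesoderm cells, 222 TKO and 779 WT cells had just that lead of 2, as did 201 TKO and 21 WT cells of the endoderm. The labels call the cells embryonic stem cells, and 199 TKO cells and 28 WT cells were gated as pluripotent. A further 1263 TKO cells and 1392 WT cells went to no class. Because the classes differ so much in size between the libraries, levels within a class are given beside those over all cells.

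Within the endoderm, Cdx2 stood at 25.3 CPM in TKO cells (22.2 to 28.7; 241 UMIs), against 37.9 CPM in WT cells (29.6 to 47.9; 70 UMIs). Within the mesoderm it stood at 4.84 CPM in TKO cells (3.00 to 7.40; 21 UMIs), against 23.6 CPM in WT cells (21.2 to 26.1; 365 UMIs). The gap between the libraries was thus wider in mesoderm, with a TKO over WT ratio of 0.205 (0.126 to 0.319), than in endoderm. There the ratio was 0.667 (0.509 to 0.883), and these intervals did not overlap. The endoderm gate held unlike clusters in TKO cells, described below, so its ratio does not hold for each of them. Across all genes, 12.1% were at least 2-fold lower in TKO mesoderm and 8.55% in TKO endoderm. Mesoderm over endoderm, Cdx2 had a ratio of 0.192 in TKO cells (0.116 to 0.300) and of 0.621 in WT cells (0.480 to 0.814), so that the endoderm was higher in both libraries. At least 2-fold lower in mesoderm than in endoderm were 11.7% of all genes in TKO cells and 12.8% in WT cells. The unassigned cells had 6.06 CPM of Cdx2 in TKO (82 UMIs), against 22.2 CPM in WT (285 UMIs), a ratio of 0.273 where 11.6% of all genes were at least 2-fold lower and 13.1% higher in TKO.

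Counted over the library, the Cdx2 molecules were divided differently between the classes. Of the 352 in TKO cells, 68.5% lay in endoderm, which made up 26.3% of TKO cells, 5.97% in mesoderm and 23.3% in unassigned cells. Of the 774 in WT cells, 9.04% lay in endoderm, which made up 4.67% of WT cells, 47.2% in mesoderm and 36.8% in unassigned cells. The WT cells gated as pluripotent also had Cdx2, with 14 UMIs in 5 of 28 cells, against 2 UMIs in 199 TKO cells of that class.

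Pitx1 followed the mesoderm in WT cells. In TKO mesoderm it had 7 UMIs (1.61 CPM), against 1107 UMIs (71.5 CPM) in WT mesoderm, a ratio of 0.0226 (0.00906 to 0.0467). In endoderm it had 6 UMIs in each library, 0.629 CPM in TKO cells and 3.25 CPM in WT cells. Mesoderm over endoderm, the ratio was 2.56 in TKO cells (0.738 to 9.24), an interval that includes 1, and 22.0 in WT cells (10.1 to 60.0). At least 2-fold higher in mesoderm were 8.04% of all genes in TKO cells and 15.9% in WT cells. Of the 1993 WT molecules 55.5% were in mesoderm, 38.0% in unassigned cells and 0.301% in endoderm. The plot of Cdx2 and Pitx1 by class shows these levels.

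**Figure D1:**
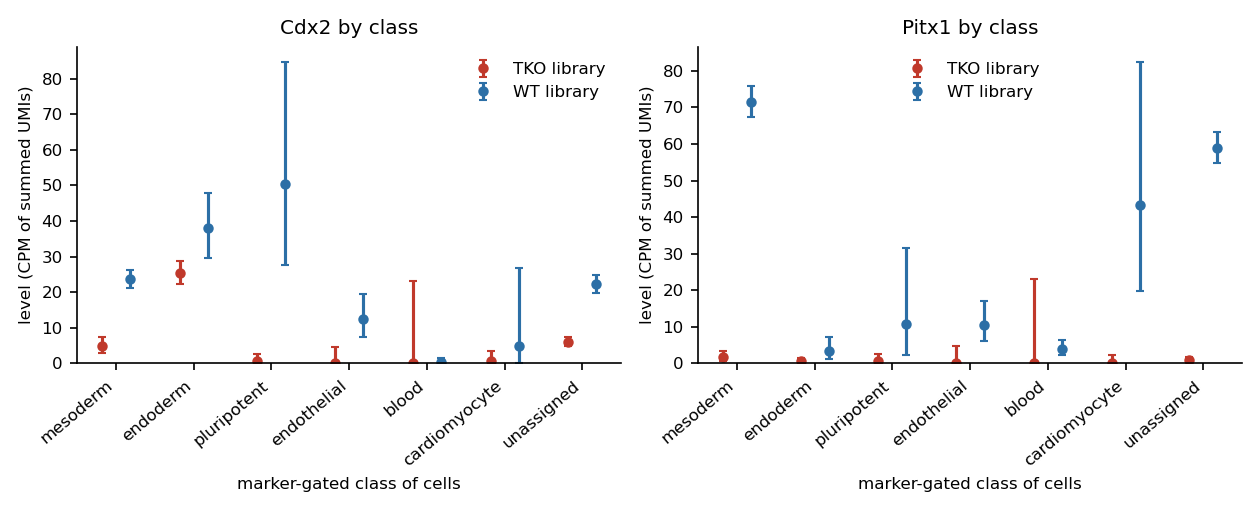
Level of Cdx2 and of Pitx1 (CPM of summed UMIs) by gated cell class, with TKO cells left of WT cells, and bars for exact Poisson 95% intervals of the count. Cdx2 was at 25.3 CPM in TKO endoderm, against 37.9 CPM in WT endoderm, and Pitx1 at 1.61 CPM in TKO mesoderm, against 71.5 CPM in WT mesoderm.

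Shares of cells were compared after each cell was thinned to 4000 UMIs, with blood-gated cells as a rough guide to the level of stray molecules. Whether the molecules in those cells are stray was not tested. Of the 399 in WT, 26 lay in WT cluster 10, described below, where Pitx1 stood at 35.7 CPM. Cdx2 was in 38 of 840 endoderm-gated TKO cells (4.52%), against 25 of 205 in WT (12.2%). In mesoderm it was in 6 of 445 TKO cells (1.35%), against 114 of 1799 WT cells (6.34%). Blood-gated cells held it in 0 of 16 TKO cells and in 1 of 399 WT cells (0.251%), with median depths of 10123.5 and 10033 UMIs before thinning, against 10624.5 in TKO endoderm and 7698 in WT endoderm. The TKO blood gate is too small to set a level, and in the 199 thinned pluripotent-gated TKO cells Cdx2 was in none, which allows a share of up to 1.51%. By summed molecules, TKO mesoderm at 4.84 CPM (3.00 to 7.40) lay above the pluripotent-gated TKO cells at 0.713 CPM (0.0863 to 2.58, 2 UMIs). Pitx1 was in 2 of 445 TKO mesoderm cells (0.449%), against 366 of 1799 in WT (20.3%). Pitx1 was in 0 of 840 TKO endoderm cells, which allows up to 0.357%, and in 3 of 205 WT endoderm cells (1.46%). The WT endoderm share was close to that of WT blood-gated cells, 5 of 399 (1.25%), and whether it is background was not tested. Over all thinned cells, 6 of 3006 TKO cells (0.200%) held Pitx1, against 586 of 4017 WT cells (14.6%). Without thinning the share was 0.720% in TKO cells, and blood-gated WT cells, from a library far richer in Pitx1, held it in 3.01%, so they set no stray level for TKO cells.

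Clusters made within each library, without the 4 genes and without any Hox gene, placed the molecules more finely. A cluster took a class name only where 3 or more of its 10 leading genes were markers of that class. The highest Cdx2 level in TKO cells was in cluster 11, with 31 UMIs in 49 cells at 70.4 CPM (47.8 to 99.9), a cluster led by T, the brachyury gene of the streak and notochord, and by genes of cilia such as Cfap126. Next was TKO cluster 5, with 371 cells led by Ttr, Ihh and Clu, which held 233 UMIs (66.2% of the TKO total) at 56.8 CPM (49.7 to 64.6). TKO cluster 8, led by Hand1 and Acta2, followed with 34 UMIs at 28.1 CPM. In WT cells Cdx2 was highest in cluster 5, with 404 cells that held 289 UMIs (37.3% of the WT total) at 84.4 CPM (74.9 to 94.7). It was followed by the pluripotent-like cluster 13 at 39.1 CPM (15 UMIs), the endoderm-like cluster 7 at 37.6 CPM (72 UMIs) and cluster 3, led by Cfc1, at 36.8 CPM (136 UMIs). When the clusters of both libraries are ranked together by Cdx2 level, every interval overlaps that of the next in the order. The endoderm gate drew on unlike TKO clusters. TKO cluster 2, led by Pax9, held 416 of the 840 TKO cells of that gate, with 4 Cdx2 UMIs (0.635 CPM, 0.173 to 1.62). TKO cluster 5 held 300 of them, and its Cdx2 level lay above that of WT cluster 7 (29.4 to 47.3), without overlap. Between TKO cluster 5 and WT cluster 7 the order of the libraries was thus the reverse of that over the gate.

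Among TKO clusters the highest for Pitx1 was cluster 8, at 9.09 CPM (4.54 to 16.3), which held 11 of the 30 UMIs, and the next, TKO cluster 1, stood at 1.20 CPM (0.439 to 2.60). WT cluster 5 stood at 250.2 CPM (233.7 to 267.5) with 857 UMIs, 43.0% of the WT total, and did not overlap the next, WT cluster 6 at 74.8 CPM (64.0 to 86.9). Below these lay WT clusters 9 at 56.8 CPM and 2 at 50.5 CPM, and WT cluster 2 did not overlap cluster 3 at 37.8 CPM. WT cluster 10, led by the globin gene Hbb-bs and with a median of 14609 UMIs per cell, had 35.7 CPM (34 UMIs), and 26 of its 65 cells were gated as blood. The WT cluster 5 that was highest for both genes had 245 of its 404 cells gated as mesoderm and also led in Twist1, a mesenchymal transcription factor, and Wnt5a, a Wnt ligand of outgrowing tissue.

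**Figure D2:**
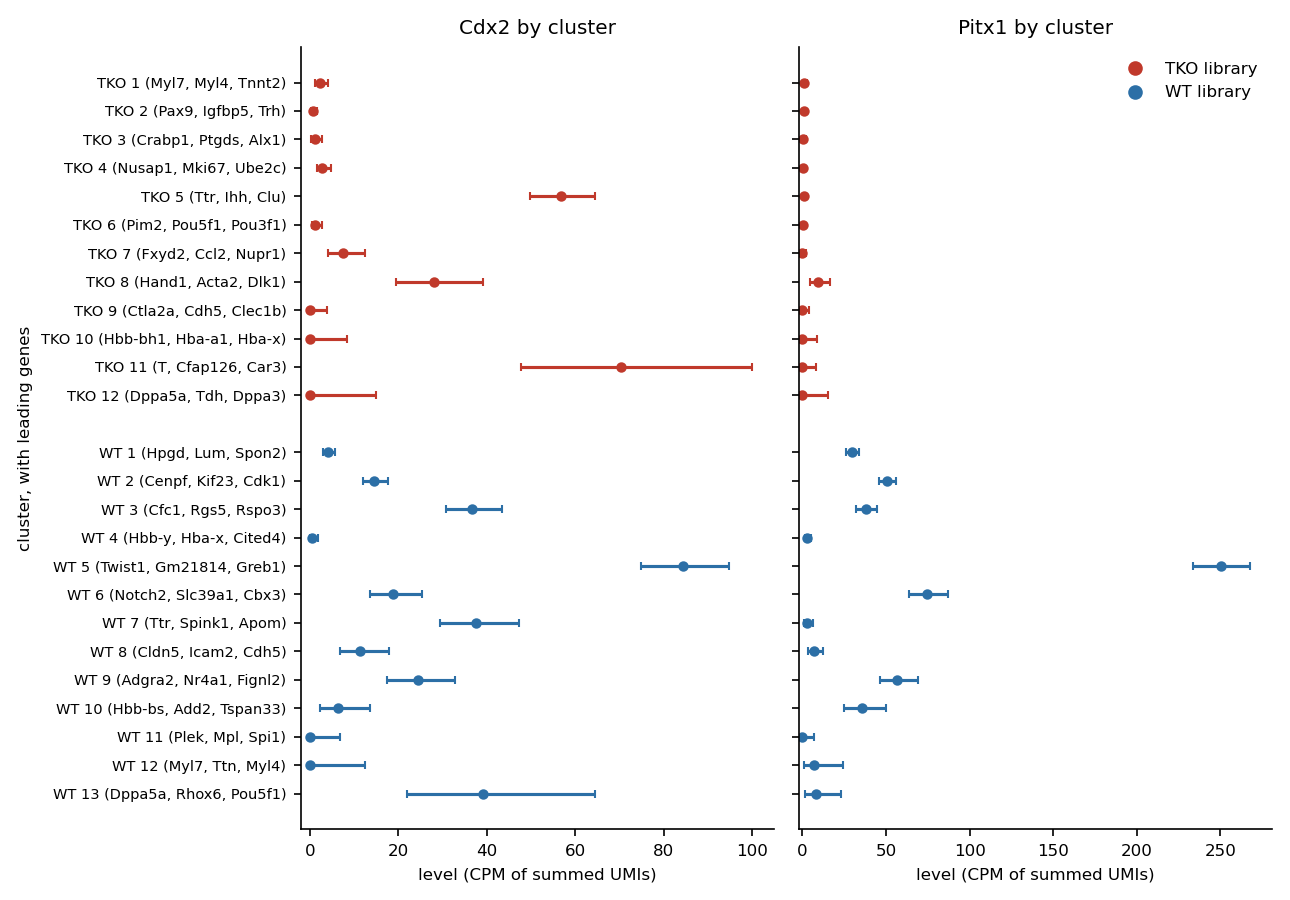
Level of Cdx2 (left) and of Pitx1 (right) in CPM of summed UMIs for each cluster, TKO clusters above WT clusters, each with its 3 leading genes other than the members and Hox genes, and with exact Poisson 95% intervals as bars. WT cluster 5 is highest for both, at 84.4 CPM of Cdx2 and 250.2 CPM of Pitx1, while TKO clusters 5 and 11 have Cdx2 at 56.8 and 70.4 CPM with Pitx1 at 0.731 and 0 CPM.

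The gene that kept closest company with Cdx2 in TKO cells was Nepn, which encodes the proteoglycan nephrocan and is known in mouse embryos as a marker of the mid- and hindgut endoderm. Nepn had 93 UMIs in TKO cells, 75 of them in the 155 cells with Cdx2, against 30 UMIs in WT cells, 17 of them in cells with Cdx2. In TKO cells its level was 68.6-fold higher in cells with Cdx2 than without (40.6 to 122), and 54.8-fold without the cell that held most of it. TKO cluster 5 held 92 of the 93 Nepn UMIs and WT cluster 7 held 28 of 30. Next in TKO cells came Shh, the hedgehog ligand of notochord and gut, at 13.04-fold, T at 11.9-fold, and the cilium-associated Fam183b at 11.1-fold. Ccl2, a chemokine, ranked next at 8.98-fold, but all of its 48 UMIs in cells with Cdx2 came from 1 cell. The liver and yolk sac carrier Ttr stood at 8.72-fold. Within TKO endoderm the order was Nepn at 32.1-fold, T at 14.4-fold (6.80-fold without 1 cell), the chemokine Cxcl12 at 14.3-fold, the deiodinase Dio3 at 13.2-fold, the Notch-family ligand Dlk1 at 8.51-fold and the zinc finger gene Zfp503 at 7.70-fold. Cells with and without a Cdx2 UMI were split on that UMI, so these ratios describe company and are not a test.

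The 2 Cdx2-rich TKO clusters differed in that company. T was at 661 CPM in TKO cluster 11, which held 291 of its 338 UMIs, and Shh was at 88.6 CPM there, against 7.30 CPM in TKO cluster 5. Ihh, the hedgehog ligand of gut endoderm, was at 53.6 CPM in TKO cluster 5, against 45.4 CPM in WT cluster 7. Ttr was at 282 CPM in TKO cluster 5, against 6005 CPM in WT cluster 7. Rarb, a retinoic acid receptor, was at 83.8 CPM in TKO cluster 5, against 15.1 CPM in WT cluster 7. Isl1, a homeobox gene of cardiac and hindlimb progenitors, was at 82.8 CPM in TKO cluster 5, against 97.1 CPM in WT cluster 7. T had 0 UMIs in TKO cluster 5, and Nepn, Ihh and Ttr had 0 in TKO cluster 11.

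Other tissues in which Cdx2 is known were looked at by their markers. Of 12 trophoblast genes, 7 had enough UMIs between TKO cells with Cdx2 and those without, and 0 were at least 2-fold higher with Cdx2 while 1 was lower, where 6.39% of all 13991 genes were higher and 4.76% lower. A gene with no UMI in one group was called only where the floor of 3 counts still gave 2-fold. In WT cells 1 of 7 was higher and 0 lower, where 4.37% of 14011 genes were higher and 4.99% lower. The trophoblast regulator Elf5 had 2 UMIs in TKO cells and 0 in WT cells. Of 12 genes of differentiated intestine, 3 of 6 measured were higher and 1, Lgals4 with 1 UMI in cells with Cdx2 (ratio 0.499, 0.0123 to 2.98), lower in TKO cells with Cdx2, and 2 of 3 were higher and 0 lower in WT cells with Cdx2. Within endoderm alone, 0 of 1 measured was higher or lower with Cdx2 in TKO cells, and 0 of 2 in WT cells. There 5.18% of all genes were higher with Cdx2 in TKO cells and 4.29% in WT cells. Cdh17, an intestinal cadherin and known target of Cdx2, had 0 UMIs in both libraries.

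In WT cells the company of Cdx2 held genes of endoderm and of mesoderm. The ratio of cells with Cdx2 over cells without was highest for Acta1, skeletal actin, at 23.3-fold, but 85 of its 115 UMIs in cells with Cdx2 came from 1 cell. After it came Lgals2, a galectin, at 5.17-fold, Pitx1 at 4.60-fold, Gldc, of glycine breakdown, at 4.22-fold, Apob, an apolipoprotein of endoderm, at 4.20-fold and Hoxd9 at 4.00-fold. Within WT mesoderm the highest were Tmem158 at 4.65-fold, Hoxd9 at 4.39-fold, the growth factor Fgf3 at 4.11-fold, Sh3bgr at 3.74-fold, Pitx1 at 3.66-fold and Hoxc9 at 3.59-fold. Within WT endoderm the highest, Acta1 at 29.3-fold and the receptor subunit Amn at 6.61-fold, rested on 1 cell each, without which they stood at 1.05-fold and 0.635-fold. Next there were Tagln, a smooth muscle protein, and the cyclin Ccnd2, at 4.67-fold and 2.91-fold. Of the genes that act upstream of Cdx genes, 7 of 17 measured were at least 2-fold higher and 0 lower in WT cells with Cdx2, where 4.37% of all genes were higher and 4.99% lower. Within WT mesoderm it was 4 of 15 higher and 0 lower (3.53% and 4.27% of all genes), and within WT endoderm 1 of 11 higher and 2 lower (4.29% and 7.53% of all genes). For Pitx1 in WT cells the highest were Hoxc8 at 6.91-fold, Cdx2 at 6.11-fold, Hoxd9 at 5.72-fold, Hoxc6 at 4.21-fold and Twist1 at 3.98-fold.

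Cdx2 and Pitx1 were often in the same WT cell. Among thinned cells, 1 of 68 TKO cells with Cdx2 (1.47%) held Pitx1, against 5 of 2938 TKO cells without Cdx2 (0.170%). Among WT cells with Cdx2, 106 of 237 (44.7%) held Pitx1, against 480 of 3780 without (12.7%). Within WT mesoderm the shares were 58 of 114 (50.9%) with Cdx2 and 18.3% without. In WT cluster 5, before thinning, 137 of the 157 cells with Cdx2 (87.3%) held Pitx1. In the endoderm-like WT cluster 7 it was 1 of 52 cells with Cdx2 (1.92%), and in TKO cluster 5 it was 2 of 82 (2.44%). Over the 25 clusters the log2 levels of Cdx2 and Pitx1 had a Pearson correlation of 0.53, with 0.37 over the 12 TKO clusters and 0.62 over the 13 WT clusters. Clusters of 1 library share its depth and preparation, so this is a description. The genes most like Cdx2 over the 25 clusters, of 8485 candidates, were Car13 at 0.76, Actn4 at 0.74 and Klf6 at 0.72. Those most like Pitx1 were Hoxd9 at 0.93, Col1a1 at 0.93 and Bnc2 at 0.93. Pitx1 was at most 9.09 CPM in a TKO cluster, against 250.2 CPM in WT cluster 5, so the difference between the libraries enters these values. For these genes no values within 1 library are given.

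Co-detection with trunk or posterior Hox genes (paralog groups 5 to 13, 27 genes) was counted in the same thinned cells. In TKO, 10 of 68 cells with Cdx2 (14.7%, 7.28 to 25.4) held such a Hox gene, against 58 of 2938 without (1.97%). In WT, 132 of 237 cells with Cdx2 (55.7%, 49.1 to 62.1) did so, against 1387 of 3780 without (36.7%). Anterior Hox genes (groups 1 to 4, 12 genes) differed less in TKO and ran the other way in WT. They were in 15 of 68 TKO cells with Cdx2 (22.1%), against 17.9% without, and in 64 of 237 WT cells with Cdx2 (27.0%), against 40.7% without. For comparison, 23 of 398 WT blood-gated cells without Cdx2 (5.78%) held a trunk or posterior Hox gene, at a median of 10021.5 UMIs per cell. Whether these are stray molecules was not tested. Before thinning, cells with and without Cdx2 differed little in depth, with medians of 10283 and 9995 UMIs in TKO and of 8490 and 8162 in WT. Without thinning the shares were 31 of 155 (20.0%) against 4.97% in TKO, and 338 of 471 (71.8%) against 49.6% in WT.

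By class, a trunk or posterior Hox gene was detected beside Cdx2 more often in WT mesoderm than in the endoderm of either library. In TKO mesoderm just 6 thinned cells held Cdx2, and 1 of them held such a Hox gene, against 19 of 439 without (4.33%). In TKO endoderm 4 of 38 cells with Cdx2 (10.5%) held a trunk or posterior Hox gene, against 6 of 802 without (0.748%), and 6 of the 38 (15.8%) held an anterior Hox gene, against 4.36% without. In WT endoderm it was 3 of 25 (12.0%), against 5 of 180 without (2.78%), with median depths of 9209 and 7471 UMIs before thinning. In WT mesoderm it was 71 of 114 (62.3%), against 44.8% without, while anterior Hox genes were in 29.8% of cells with Cdx2 and 49.4% of those without. In WT cluster 5, 139 of 157 cells with Cdx2 before thinning (88.5%) held a trunk or posterior Hox gene. The same count was 6 of 52 (11.5%) in WT cluster 7, 12 of 82 (14.6%) in TKO cluster 5 and 3 of 15 (20.0%) in TKO cluster 11. In TKO cluster 8, 6 of 18 cells with Cdx2 (33.3%) held a trunk or posterior Hox gene, 13 an anterior one and 3 Pitx1. So cells with Cdx2 in TKO cluster 5 and in the endoderm-like WT cluster 7 seldom had a detected trunk or posterior Hox gene.

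Pitx1 went with the same Hox genes in WT cells. Of 586 WT cells with Pitx1, 373 (63.7%) held a trunk or posterior Hox gene, against 33.4% of cells without Pitx1. Within WT mesoderm it was 239 of 366 (65.3%) with Pitx1 and 587 of 1433 (41.0%) without. Anterior Hox genes ran the other way, in 33.9% of WT mesoderm cells with Pitx1 and 51.8% without. The TKO cells with Pitx1 were few, and 3 of 6 thinned ones held a trunk or posterior Hox gene, against 65 of 3000 without Pitx1 (2.17%). Of 29 Hox genes measured, 17 were at least 2-fold higher and 1 lower in WT cells with Pitx1, where 2.43% of all genes were higher and 7.48% lower. In TKO, from 23 cells with Pitx1, 10 of 19 were higher and 0 lower, where 8.08% of genes were higher and 5.25% lower. A single cell, with 5 Pitx1 UMIs, held 20 of the 38 trunk or posterior Hox UMIs in those 23 cells, so this count rests largely on that cell.

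**Figure D3:**
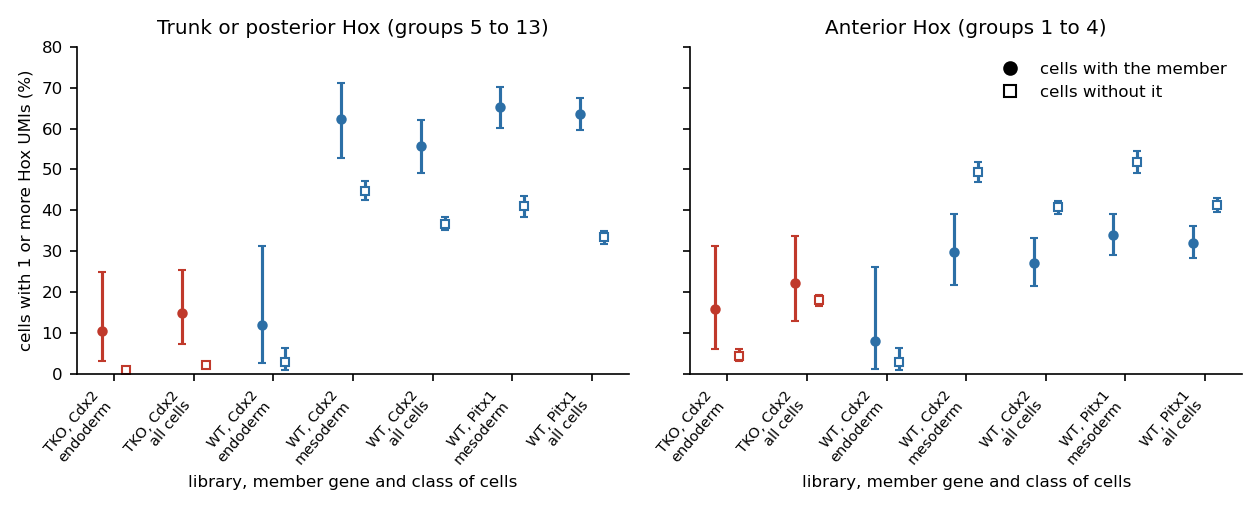
Share of thinned cells (4000 UMIs each) that held a trunk or posterior (left) or an anterior (right) Hox gene, with circles for cells with Cdx2 or Pitx1 and squares for cells without it, by library and class, and with Clopper-Pearson 95% intervals. Trunk or posterior Hox genes were in 14.7% of TKO cells with Cdx2 and 55.7% of WT cells with Cdx2, against 1.97% and 36.7% of the cells without it.

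Which Hox genes accompanied Cdx2 depended on the paralog group. In WT mesoderm, summed Hox levels of group 9 were 85.0 CPM in cells with Cdx2 and 21.5 CPM in cells without, a ratio of 3.95 (3.27 to 4.76). The ratio was 5.44 for group 10, 8.41 for group 11 and 5.58 for group 13. It was 1.74 for group 7, 1.46 for group 8, 0.996 for group 6 and 0.643 for group 5. At the anterior end group 2 was lower in cells with Cdx2, with a ratio of 0.444 (0.364 to 0.537). Cells with Pitx1 in WT mesoderm had ratios in a like order, with 0.491 for group 2, 1.08 for group 6, 4.96 for group 9 and 13.2 for group 10 (7.46 to 25.1). For group 11 it was 48.8, from 23 UMIs in cells with Pitx1 and 1 in cells without (7.93 to 2011). The plot of summed Hox levels by paralog group gives all of them.

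**Figure D4:**
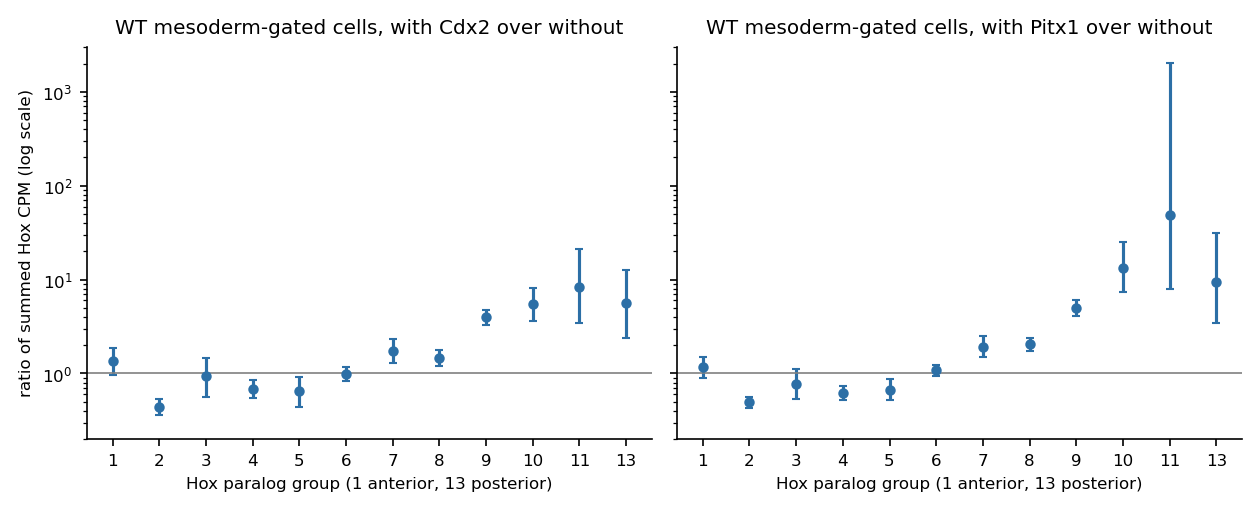
Summed Hox level in WT mesoderm-gated cells by paralog group, as the ratio of cells with Cdx2 or Pitx1 over cells without (log axis), with exact 95% intervals. Both genes have ratios under 1 at group 2 (0.444 and 0.491) and above 1 at group 9 (3.95 and 4.96).

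Among single Hox genes, Hoxd9 was in 20 of 114 thinned WT mesoderm cells with Cdx2 (17.5%), against 6.23% without. Hoxa10 was in 7.02% with and 0.772% without, and Hoxc9 in 8.77% with and 2.55% without. Hoxb6 was in 14.9% with and 19.2% without, and Hoxb2, of hindbrain and anterior mesoderm, in 13.2% with and 31.9% without. Of 25 Hox genes measured between WT mesoderm cells with and without Cdx2, 14 were at least 2-fold higher with Cdx2 and 2 lower, where 3.53% of all 12269 genes were higher and 4.27% lower. For Pitx1 in WT mesoderm it was 16 higher and 2 lower of 25, where 2.58% of genes were higher and 2.53% lower. In TKO cells 10 of 19 measured Hox genes were higher with Cdx2 and 1 lower, where 6.39% of all genes were higher and 4.76% lower. Just 3 cells held 63 of the 115 trunk or posterior Hox UMIs in TKO cells with Cdx2. This count of genes was not repeated without them. Within TKO endoderm 4 of 4 measured Hox genes were higher with Cdx2, where 5.18% of all genes were higher and 5.27% lower. In all WT cells it was 16 higher and 2 lower of 29, where 4.37% of all genes were higher and 4.99% lower. The Hox gene most often seen in thinned TKO cells with Cdx2 was Hoxb8, in 6 of 68 (8.82%), against 0.204% without.

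The RefSeq windows from 250 bases before to 50 after the start (GRCm38.p6) of Nepn, Hoxb8 and Hoxd9, the genes that stood out beside Cdx2 in TKO endoderm, in TKO cells and in WT mesoderm, are given next. They lie at chr10:52391358-52391657, chr11:96281655-96281954 and chr2:74697513-74697812, all on the plus strand. Capitals mark TTTATG or TTTATA on either strand, the core letters that Cdx proteins are known to bind. Nepn has 2 matches, Hoxb8 4 and Hoxd9 0, and Cdx2's own window above has 0. One or the other is in 22.8% of all 32851 windows (TTTATG in 11.9%, TTTATA in 13.6%) and in 7 of the 24 windows of Hox genes (29.2%). A match describes the letters only. TTTATA read on the other strand is TATAAA, as marked in the Nepn window, which is also the letter string of a TATA box. The matches do not tell these apart. Of the 4 genes 2 have a window in the table.
Nepn: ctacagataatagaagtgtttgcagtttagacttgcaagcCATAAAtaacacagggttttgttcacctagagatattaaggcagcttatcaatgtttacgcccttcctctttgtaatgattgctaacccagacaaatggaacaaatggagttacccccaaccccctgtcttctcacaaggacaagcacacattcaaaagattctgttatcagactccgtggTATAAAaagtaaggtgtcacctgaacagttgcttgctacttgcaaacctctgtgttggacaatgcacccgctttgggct
Hoxb8: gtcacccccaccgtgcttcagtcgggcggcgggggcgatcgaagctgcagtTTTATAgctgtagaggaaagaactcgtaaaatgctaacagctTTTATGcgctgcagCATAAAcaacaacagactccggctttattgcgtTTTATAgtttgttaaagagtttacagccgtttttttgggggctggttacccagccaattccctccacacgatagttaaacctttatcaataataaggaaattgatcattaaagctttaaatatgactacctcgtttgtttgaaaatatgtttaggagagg
Hoxd9: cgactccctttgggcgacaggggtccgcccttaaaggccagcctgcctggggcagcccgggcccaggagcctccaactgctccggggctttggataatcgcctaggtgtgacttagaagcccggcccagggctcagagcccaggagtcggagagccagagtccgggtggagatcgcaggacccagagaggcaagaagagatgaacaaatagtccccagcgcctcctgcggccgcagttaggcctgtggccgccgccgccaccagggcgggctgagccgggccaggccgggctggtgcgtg

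In TKO cells the summed Hox levels rested on few cells. The trunk or posterior genes had 302 UMIs in 182 TKO cells. They were at 59.95 CPM in TKO cells with Cdx2 and 5.92 CPM in those without, a ratio of 10.1 (7.95 to 12.8). Just 3 cells, with 24, 20 and 19 of these UMIs, held 20.9% of the total. All 3 held Cdx2 and were in no gated class. Without them the level in cells with Cdx2 was 27.5 CPM and the ratio 4.64 (3.34 to 6.33). For group 9 the ratio was 67.9 with them and 18.8 without. In WT cells the 3 highest cells held 0.897% of 5794 UMIs, and the ratio was 1.69 with them and 1.65 without. Whether these 3 TKO cells are doublets was not tested; 1 of them was among the highest doublet scores. In TKO endoderm, where none of them lay, trunk or posterior Hox genes were at 17.3 CPM (19 UMIs) with Cdx2 and 1.78 CPM without. In WT endoderm they were at 11.6 CPM (7 UMIs) with Cdx2 and 10.5 CPM (13 UMIs) without.

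Between the libraries, the Hox genes as a group were lower in TKO cells, while 10 of the 20 of the measured genes that act upstream of Cdx genes were higher. Of 39 Hox genes 33 had enough UMIs, and 24 of these were at least 2-fold lower and 5 higher in TKO cells, with a median log2 ratio of -2.36 against 0.14 for all genes, of which 12.6% were lower and 13.7% higher. The largest gaps were in Hoxa10, with 1 UMI in TKO and 95 in WT cells, 84.8-fold higher in WT (14.9 to 3385), Hoxb7 with 6 and 426 (63.4-fold), Hoxb6 with 27 and 1701 (56.2-fold) and Hoxb5 with 18 and 684 (33.9-fold). Hoxa3, of the hindbrain and pharynx, went the other way with 48 UMIs in TKO and 3 in WT cells, 17.9-fold higher in TKO (5.78 to 89.9), and Hoxa5 was 6.98-fold, Hoxa2 6.35-fold and Hoxb1 2.57-fold higher. Hoxa7 stood at a ratio of 0.933. Within mesoderm alone 16 of 29 measured Hox genes were lower in TKO cells and 4 higher, where 12.1% of all genes were lower and 9.61% higher. Neighbouring Hox genes overlap with antisense transcripts, and whether the counting used strand is not given in the sources used here.

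Signals and factors known to act upstream of Cdx genes were looked at by a list of 22 genes, of which 20 were measured. In TKO cells 10 were at least 2-fold higher and 2 lower, with a median log2 ratio of 1.17, where 13.7% of all genes were higher and 12.6% lower. T had 338 UMIs in TKO and 18 in WT cells, 21.0-fold higher (13.1 to 35.9). Sp8, a zinc finger factor of Wnt and Fgf signalling, was 15.2-fold higher, the ligand Fgf8 9.74-fold, the receptor Rarb 9.48-fold, the Wnt target Sp5 9.44-fold and the retinoic acid hydroxylase Cyp26a1 9.14-fold. The ligands Wnt3 and Wnt5a were lower, at ratios of 0.416 and 0.472, and Wnt3a, a tail bud ligand, had 0 UMIs in both libraries. So Cdx2 stood lower in TKO cells, at a ratio of 0.509, while 10 of the 20 measured genes of this list stood at least 2-fold higher. The share lower, 2 of 20, was close to that of all genes. The list mixes kinds of genes, such as ligands and the hydroxylase Cyp26a1, so the count does not measure the signal that reaches Cdx2.

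Genes that act with Pitx1 in the hindlimb field (18, of which 17 were measured) were also mixed, with 7 higher and 2 lower in TKO cells and a median log2 ratio of 0.83, and the share lower, 2 of 17, was close to the 12.6% of all genes (13.7% were higher). Tbx4, the hindlimb and allantois T-box gene that Pitx1 activates, had 0 UMIs in TKO and 11 in WT cells. Higher in TKO cells were Irx5 at 7.18-fold, Isl1 at 6.77-fold, Nr6a1, a nuclear receptor of trunk elongation, at 3.73-fold and the Hox cofactor Meis1 at 3.18-fold. Genes of the allantois and extraembryonic mesoderm, all 12 measured, had 8 lower and 1 higher in TKO cells, against the same 12.6% and 13.7% of all genes, with a median log2 ratio of -2.22, or -1.68 with Tbx4 at its bound. Hand1, a mesodermal transcription factor, was 13.8-fold, the integrin Itga4 12.6-fold and the scaffold protein gene Ahnak 8.79-fold higher in WT, and Bmp7, a signalling ligand, was 5.43-fold higher in TKO. The Hox cofactors of the Pbx and Meis families, 7 of 7 measured, had 2 higher (Pbx4 at 4.91-fold and Meis1) and 0 lower, a count too small to set against the 13.7% of all genes. Mesoderm-gated cells were 13.9% of TKO and 41.0% of WT cells, so the same lists were counted within mesoderm. There 7 of 16 genes upstream of Cdx genes were higher and 4 lower in TKO, and 6 of 14 hindlimb-field genes were higher and 1 lower. Of 11 allantois genes 1 was higher and 7 lower. Over all genes there, 9.61% were higher and 12.1% lower. Many of the upstream genes, such as T, Fgf8, Sp5 and Cyp26a1, were markers of the streak class, and Fgf4 of the pluripotent class. Hand1 and Hand2, of the allantois and hindlimb-field lists, were mesoderm markers. These counts are therefore not independent of the gate.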

How the data were processed

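Measured were 2 single-cell RNA libraries of day 5, TKO and WT, grouped by genotype in the labels, 1 each. Raw counts for every gene in every cell were deposited, and are read here as UMI counts. The submitters' processing notes name Seurat 3 and mm10 without their role, while no aligner or counter is named (not given in the sources used here). The TKO header names 3224 barcodes for 3223 columns, which left cells identified by column alone, and barcodes in both headers were marked in either candidate column. Rows were matched by position, since 116 names differ only in a suffix.

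Cells with at least 500 genes, 1000 UMIs and at most 15% mitochondrial counts were kept, which removed 26 TKO and 3 WT cells. Scrublet in scanpy 1.11.5 marked 1 TKO and 3 WT cells, which were removed. With at most 0.0683% marked, the caller did not work and doublets remain. Counts were summed over cells and scaled to CPM; ratios have exact intervals from the binomial share (scipy 1.17.1). A count of 0 was set at a floor of 3 counts for bounds. A gene was measured with at least 10 UMIs over both groups, and at least 2-fold was called higher or lower, at the bound where one group had no UMI. Clusters came from 2000 variable genes, 30 components, 15 neighbours and Leiden (igraph 0.11.9) at resolution 0.8.

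The 4 genes and all lists were chosen with earlier results of these data known. Besides the 4 genes, those named were up to 4 genes at either end of each list with at least 20 UMIs, the Hox genes most often found with a member, the 3 genes most like it over clusters, and the 6 highest ratios of cells with it over cells without; genes named as examples outside this rule were chosen after their values were seen. Levels are not length-corrected, so they are compared between cells and not between genes. The values of some single genes of the lists are not reported here. Scripts were tested on simulated data. Alternatives covered other thinning depths, seeds, gates, minimums, scalings and left-out cells; replicates could not be left out with 1 library per group.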

Additional observations from a re-analysis of the deposited data

How the results depend on the processing

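Of 109 recomputed values over 23 ratios, shares and counts, 104 stayed within their interval or within 1.5 times of the count, 5 moved and 0 reversed. The TKO ratio of shares with a trunk or posterior Hox gene, cells with Cdx2 over cells without, was 2.62 at 2500 UMIs per cell, where 3 cells with Cdx2 held a Hox gene, against 7.45 at 4000. The WT ratio for Pitx1 was 1.59 in mesoderm-gated cells only, against 1.91 over all cells. With at least 50 UMIs, 3 Hox genes were higher and 15 lower in TKO of 21 measured, and 1 hindlimb-field gene was lower of 14, by construction from fewer genes tested. The cause of the other moves was not tested. Another thinning seed for the gates, leaving out cells with a shared barcode and leaving out the 3 cells with most Hox UMIs were chosen after seeing the data. No paired analysis was possible because each group has 1 library and no test was run. Depth limits Cdx1 and Cdx4, which stood under the floor of 3 counts, and the shares of TKO cells with Pitx1, which rest on 30 UMIs.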
